A study of Mus musculus with 4 samples.

Results

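TIM-3+ exhausted CD8+ T cells (TIM-3+ Tex) were 1056 of 11754 CD8+ T cells from the bone marrow (BM) of mice after stem cell transplantation (SCT). They are the cells that carry this cluster name in the deposited cell table, matched by barcode to the deposited counts of unique molecular identifiers (UMIs), in which 1 UMI stands for 1 captured RNA molecule. CD8+ T cells were sorted at day 28 (week 4) after SCT from 5 pooled female mice per group, and each group was 1 library. The 4 groups received isotype control antibody (cIg) with vehicle, αTIGIT with vehicle, cIg with lenalidomide, or αTIGIT with lenalidomide, with antibody from the day of SCT and lenalidomide or vehicle from day 14. Recipients were on a C57BL/6 background, wild type or transgenic for a modified cereblon (CRBN), the protein through which lenalidomide acts. All recipients carried the Vk12653 myeloma, and all received BM with T cells from genetically matched donors. The libraries are numbered 1 to 4 in the deposited tables, and which number belongs to which treatment was not given in the sources used here. Values are therefore given per library, and no treatment was compared.

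Exhausted T cells arise when a T cell receptor (TCR) is stimulated for a long time, as in chronic infection or cancer. They keep inhibitory receptors such as PD-1, LAG-3, TIGIT and TIM-3 on their surface, carry the transcription factor TOX, and lose the factors of naive and stem-like cells, among them TCF1. TIM-3, encoded by Havcr2, is used to mark the most differentiated of these cells, which still make chemokines and granule proteins.

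Libraries 1 to 4 held 486, 181, 31 and 358 TIM-3+ Tex cells. They made up 11.5%, 9.04%, 1.80% and 9.45% of their libraries, and 8.98% of the cells of all libraries (95% Clopper-Pearson interval 8.47 to 9.52). The share was lowest in library 3, where its interval was 1.22 to 2.54. Summed over the cluster, the libraries gave 4691749, 1798257, 320008 and 3435891 UMIs, so that 1 UMI was worth 0.213, 0.556, 3.12 and 0.291 CPM, the unit that scales UMIs to a common total. The median TIM-3+ Tex cell had 8074.5 to 9140 UMIs and 2576 to 2773 detected genes in a library, and mitochondrial transcripts took 1.59% to 1.62% of its UMIs. Values of library 3 rest on 31 cells and are the least precise throughout. Barcode sequences repeat across libraries for 2 of the 1056 cells.

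Levels are UMIs of a gene summed over the cells of a cluster in a library and expressed as CPM. A log2 ratio compares TIM-3+ Tex with other cells of the same library after adding 10 CPM to both sides, and is given as the median over the 4 libraries with its range. A gene was called higher or lower if this median was at least 1 in size (2-fold) and all 4 libraries went in 1 direction. The clusters were made from these genes in these cells and each treatment was a single library, so the ratios describe the cluster and no test was run on them. Genes were compared if the mean of TIM-3+ Tex and the other cells reached 25 CPM, so a gene can enter through the side where it is high. For some lists the genes that went 1 way in all 4 libraries are counted. The share of all compared genes that did so was not counted, so these counts have no base rate beside them. Intervals at the 95% level cover counting error only.

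The 6 genes given as markers of the cluster were checked first. Ccl3 and Ccl4 encode inflammatory chemokines that draw other leukocytes. Ccl3 stood at 2258, 1939, 4066 and 1911 CPM in TIM-3+ Tex of libraries 1 to 4 and at 565, 476, 315 and 304 CPM in all other cells, a log2 ratio of 2.31 (range 1.98 to 3.65). Ccl4 reached 3006, 2898, 6047 and 3383 CPM against 768, 797, 645 and 570 CPM, a log2 ratio of 2.25 (1.85 to 3.21). Both were highest in TIM-3+ Tex among the 8 clusters in every library, and both were highest in library 3. Pdcd1, which encodes PD-1, gave 541, 492, 500.0 and 474 CPM against 199, 148, 125 and 150 CPM (1.63, range 1.40 to 1.92). Tigit gave 584, 516, 550.0 and 574 CPM against 213, 162, 130 and 198 CPM (1.55, range 1.41 to 2.0). These receptors were again highest in TIM-3+ Tex of each library, and their levels differed little among the libraries.

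Havcr2 itself was less particular to the cluster. TIM-3+ Tex had 74.0, 86.2, 100 and 73.3 CPM of Havcr2, and all other cells had 29.9, 18.6, 29.7 and 12.1 CPM (log2 ratio 1.61, range 1.07 to 1.91). TIGIT+ Teff, a cluster of effector cells, had 84.3, 95.8, 74.6 and 47.1 CPM and so lay above TIM-3+ Tex in libraries 1 and 2 and below it in libraries 3 and 4. The Poisson intervals of TIM-3+ Tex were 66.4 to 82.2 CPM in library 1 and 73.2 to 101 CPM in library 2. Gzma, which encodes the granule protease granzyme A, was the marker that was not called. It stood at 1500.3, 1068, 122 and 937 CPM, highest of the 8 clusters in libraries 1, 2 and 4 and sixth in library 3. The 39 UMIs behind the level in library 3 give an interval of 86.7 to 167 CPM. Gzma had a log2 ratio to all other cells of 1.40 (range -1.08 to 1.65), and the direction turned in library 3 alone. Without library 3 its median was 1.54 and its 3 libraries went in 1 direction. Of the 6 markers 5 were called. The markers were given with a cluster made from these same counts, so their calls describe it and are no support for its name. Havcr2 averaged below 25 CPM in all other cells and entered through TIM-3+ Tex, and it marks TIGIT+ Teff as well.

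**Figure D1:**
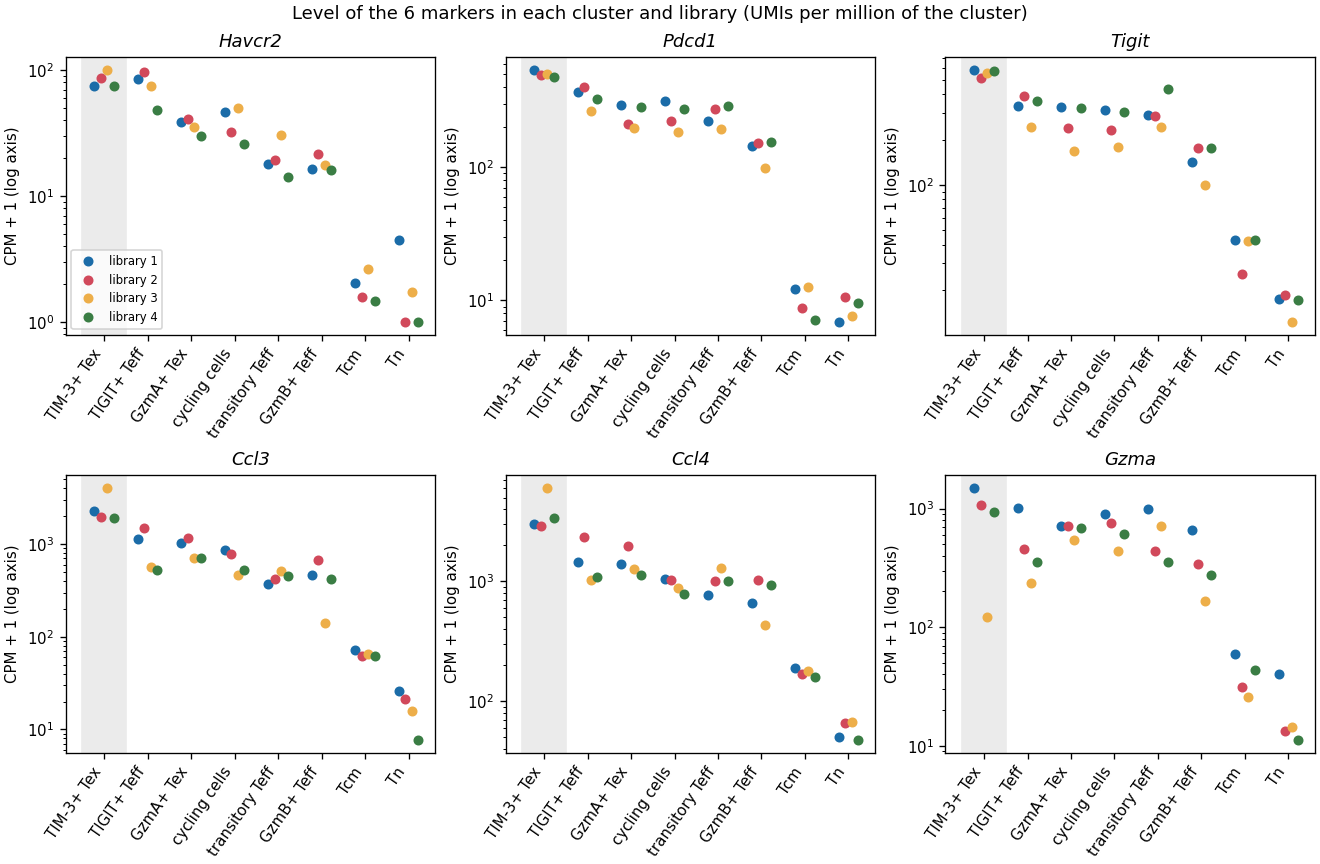
Level of the 6 markers (CPM + 1, log axis) in each of the 8 clusters, with 1 point per library and TIM-3+ Tex on the shaded strip. Ccl3, Ccl4, Pdcd1 and Tigit are highest in TIM-3+ Tex in 4 of 4 libraries, Havcr2 overlaps with TIGIT+ Teff, and the Gzma point of library 3 (122 CPM) lies far below the other 3.

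Havcr2 lies on the plus strand of chromosome 11 (chr11:46454935-46481255, GRCm38, GENCODE M21). Its promoter is shown because it holds 2 of the 4 motifs searched. The sequence is the 250 bases before the start in RefSeq (GRCm38.p6, chr11:46454681-46454930, plus strand). Capitals mark an AP-1 motif and then a RUNX motif.
Havcr2 promoter: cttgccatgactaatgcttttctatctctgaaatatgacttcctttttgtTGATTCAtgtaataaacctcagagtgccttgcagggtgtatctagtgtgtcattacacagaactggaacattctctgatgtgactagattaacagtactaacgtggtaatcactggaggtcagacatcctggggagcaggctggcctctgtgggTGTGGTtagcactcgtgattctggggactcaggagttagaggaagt
Promoters of 31 of the 43 genes called higher in TIM-3+ Tex than in all other cells were matched by symbol, as were 3890 of the 4858 genes compared, and both strands were searched. The AP-1 motif TGANTCA was in 4 of 31 (12.9%; Sdcbp2, Prdm1, Bcl2a1d and Havcr2) and in 3.70% of the 3890. The RUNX motif TGTGGT was in 8 of 31 (25.8%) against 11.3%, among them Havcr2, Ccl3, Tigit, Spp1, Prf1 and Cxcr6. The NFAT motif TGGAAA was in 8 of 31 (25.8%) against 14.9%, among them Ctla4, Tnfrsf9, Ubash3b, Cxcr6 and Samsn1, but it was also in 15 of the 57 matched promoters of genes called lower (26.3%). The NR4A motif AAAGGTCA was in 0 of 31 and in 0.874% of the 3890. These are matches of letters in a short window, given as counts without a test.

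Against all other cells of the library, 43 of 4858 genes were called higher in TIM-3+ Tex (0.885%) and 79 were called lower (1.63%). Chemokines and inhibitory receptors held 6 of the 10 highest ratios, beside Adgrg1, Spp1, 2900026A02Rik and Rgs16. When each library was left out in turn, 40, 36, 35 and 40 of the 43 genes were called again.

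Inhibitory receptors restrain T cell activation, and 6 of the 14 in the list that were compared were called higher (median of the list 0.94, median of all genes 0.01). Lag3, whose product competes with CD4 for MHC class II, stood at 721, 677, 909 and 589 CPM against 250.5, 200, 149 and 161 CPM in all other cells (1.76, range 1.49 to 2.53). Cd200r1, a receptor that binds CD200, stood at 92.3, 87.9, 62.5 and 82.1 CPM against 29.9, 20.3, 20.8 and 15.2 CPM (1.52, range 1.23 to 1.87). Ctla4, which competes with CD28 for its ligands, was low in level at 50.3, 75.1, 71.9 and 55 CPM (1.09, range 0.81 to 1.31). Every one of these TIM-3+ Tex values lay above all values of the other cells. Cd200r1 averaged below 25 CPM in the other cells and entered through TIM-3+ Tex, so its direction was set by the filter. Cd244a (0.96, range 0.79 to 1.28) and Entpd1 (0.91, range 0.70 to 1.26) fell just short of the threshold.

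Transcription factors of exhaustion were a smaller shift. Of 16 compared, 4 were called higher, 14 went up in all libraries, and the list median was 0.52. Nr4a2, an orphan nuclear receptor induced by TCR signals, stood at 320, 292, 444 and 221 CPM against 116, 96.1, 83.9 and 76.3 CPM (1.46, range 1.38 to 2.27). Tox, which is needed to maintain exhausted cells, was at 514, 470, 491 and 417 CPM against 261, 199, 200 and 186 CPM (1.16, range 0.95 to 1.25). Tox2 (1.22) and Prdm1, which encodes BLIMP-1 (1.05), were called as well. In contrast, Tbx21, encoding the effector factor T-BET, had a log2 ratio of -0.59 (range -1.11 to -0.32), Eomes one of 0.28, and Nr4a1 ranged from -0.48 to 1.30. The shift was not seen against TIGIT+ Teff. There 0 of 17 exhaustion factors compared were called higher and 1 lower, with a list median of -0.29 (all genes -0.16). Of the 17, 4 went up and 7 down in all libraries, and 16 reached 25 CPM in TIM-3+ Tex. Tox in TIGIT+ Teff stood at 504, 545, 390 and 376 CPM, above TIM-3+ Tex in library 2 alone.

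Naive and stem-like genes were low. Of 17 compared, 10 were called lower, 0 were called higher, and the list median was -1.14. In TIM-3+ Tex 11 of the 17 reached 25 CPM, and the other genes entered through the other cells. The direction of those genes was set by the filter, and they are kept in the counts and the median. Il7r, Ccr7, Lef1, S1pr1 and Id3 were among them. Tcf7, encoding TCF1, stood at 43.5, 36.7, 9.37 and 66.9 CPM against 111, 134, 125 and 128 CPM (-1.40, range -2.80 to -0.84), and the value of library 3 was 3 UMIs (interval 1.93 to 27.4 CPM). TIM-3+ Tex was the lowest of the 8 clusters for Tcf7 in libraries 1 to 3 and next to lowest in library 4. Il7r, the interleukin 7 receptor of memory cells, was at 11.9, 31.1, 3.12 and 18.0 CPM against 66.4, 116, 138 and 71.3 CPM (-1.71). Ccr7 (-2.15), which takes T cells to lymph nodes, Lef1 (-1.41), Satb1 (-1.39), Dapl1, S1pr1, Klf2 and Id3 were among the others.

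Genes of effector function did not move as 1 group. Of 12 cytotoxic granule genes, Prf1, which encodes perforin, was called higher (214, 215, 309 and 171 CPM against 125, 92.2, 126 and 73.2 CPM, log2 ratio 1.13), and Gzmm, which encodes granzyme M, was called lower (10.2, 37.8, 6.25 and 16.0 CPM against 75.0, 87.6, 85.0 and 83.4 CPM, -1.96). Gzmm averaged below 25 CPM in TIM-3+ Tex and entered through the other cells, so its direction was set by the filter. Gzmb had a log2 ratio of 0.53 and Gzmk one of 0.83, and neither was called. Chemokines were called in 3 of 4 cases, with Ccl5 at 30681 to 32998 CPM against 11290 to 13830 CPM (1.37), while Xcl1 had a ratio of -0.79. Among 6 cytokines and death ligands, Ifng (180, 236, 437 and 206 CPM against 99, 97.6, 120 and 79.6 CPM, 1.23) and Spp1, encoding osteopontin (61.4, 267, 75.0 and 43.7 CPM against 13, 51.9, 14.6 and 7.22 CPM, 1.72), were called higher. Tnfrsf9, the costimulatory receptor 4-1BB, was the 1 of 8 costimulatory receptors called (1.28, range 1.09 to 2.39). Among 15 homing genes, Cxcr6 was called higher (1.21) and Ccr7, S1pr1 and Ccr2 lower. Ccr7 and S1pr1 entered through the other cells, so their direction was set by the filter.

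TCR signalling genes showed small differences, mostly in 1 direction, without a count over all genes to set beside them. In all 4 libraries 20 of 24 genes of the TCR signal chain were higher in TIM-3+ Tex, with a list median of 0.36, but only Sh2d2a (869 to 1159 CPM, log2 ratio 1.11) and Ubash3b, a phosphatase that dampens the signal (127 to 200 CPM, 1.01), were called. Other genes among the 25 highest ratios were Adgrg1 (104, 75.6, 75.0 and 81.2 CPM against 29.3, 13.7, 8.73 and 11.8 CPM, 1.96), an adhesion receptor of cytotoxic lymphocytes, Rgs16 (1.56), a brake on G protein signals, Abcb9 (1.37), Samsn1 (1.34), Chn2 (1.27) and Napsa (1.18). No gene was called in the lists of AP-1 and immediate early genes (13 compared), glycolysis (14), proteasome (19), MHC class I (12), S100, galectins and annexins (10) or the targets of lenalidomide (7, list median 0.11). Ikzf1 and Ikzf3, which encode Ikaros and Aiolos, had log2 ratios of 0.10 and 0.40. Of 11 interferon response genes, Ifit3 (-1.39) and Usp18 (-1.17) were called lower, and of 12 NK receptors, Klra7, Klra6 and Klrb1c were (-1.15, -1.07 and -1.04). In TIM-3+ Tex 9 of the 11 interferon response genes and 10 of the 12 NK receptors reached 25 CPM. The rest of these entered through the other cells. Bcl2a1d was the 1 of 9 genes of the BCL2 family called, and higher (1.05).

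Cell cycle genes had the lowest ratios. Of 20 genes of the G2 and M phase 12 were compared, and 10 of them entered only through the other cells, so their direction was set by the filter. The 2 that reached 25 CPM in TIM-3+ Tex were Mki67 (-2.33) and Top2a. Of 16 S phase genes compared, 12 reached 25 CPM in TIM-3+ Tex and 5 of the 16 were called lower (list median -0.53). Pclaf, which acts at replication forks, stood at 27.3, 15, 6.25 and 17.7 CPM against 177, 139, 185 and 156 CPM (-2.58), and Top2a at 43.3, 43.9, 50 and 32.3 CPM against 247, 121, 337 and 129 CPM (-2.0). Pclaf averaged below 25 CPM in TIM-3+ Tex and entered through the other cells, so its direction was set by the filter. The other cells included 1928 cycling cells. Against transitory Teff, 0 of 12 S phase genes were called, and 11 of the 12 were higher in TIM-3+ Tex in all libraries (list median 0.48).

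Transcripts of other cell types were counted beside these genes. Macrophage and monocyte genes (18 in the list, 0 at 0 UMIs) summed to 244 to 284 CPM in TIM-3+ Tex, and B and plasma cell genes (13) to 123 to 175 CPM, with Cd79a, Ms4a1, Igha, Mzb1 and Tnfrsf17 among those at 0. Igkc, an immunoglobulin light chain gene, was among the 25 highest ratios (30.7, 84.5, 75.0 and 51.2 CPM against 18.0, 21.9, 17.3 and 26.0 CPM, 1.17), with these defining B and plasma cell genes at 0. Erythroid genes (7, of which 1 was at 0) summed to 21.9 to 130 CPM, mostly from Car2, a carbonic anhydrase that was called higher at 123, 60.6, 12.5 and 79.5 CPM against 29.4, 17.0, 4.73 and 20.4 CPM (1.47). Neutrophil genes gave 15.1 to 56.2 CPM (10, with Elane and Mpo at 0), genes of CD4+ and regulatory T cells 55.4 to 80.1 CPM, and those of γδ T and NK cells 212 to 263 CPM. After cells with more than 2 macrophage, plasma cell or erythroid UMIs were left out, Igkc had a ratio of 0.96 and Car2 one of 1.26. The lists that chose these cells hold Igkc and Car2, so a drop in the 2 ratios is partly built in. Igkc was also no longer called without library 2 or without library 3 (0.77 each).

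**Figure D2:**
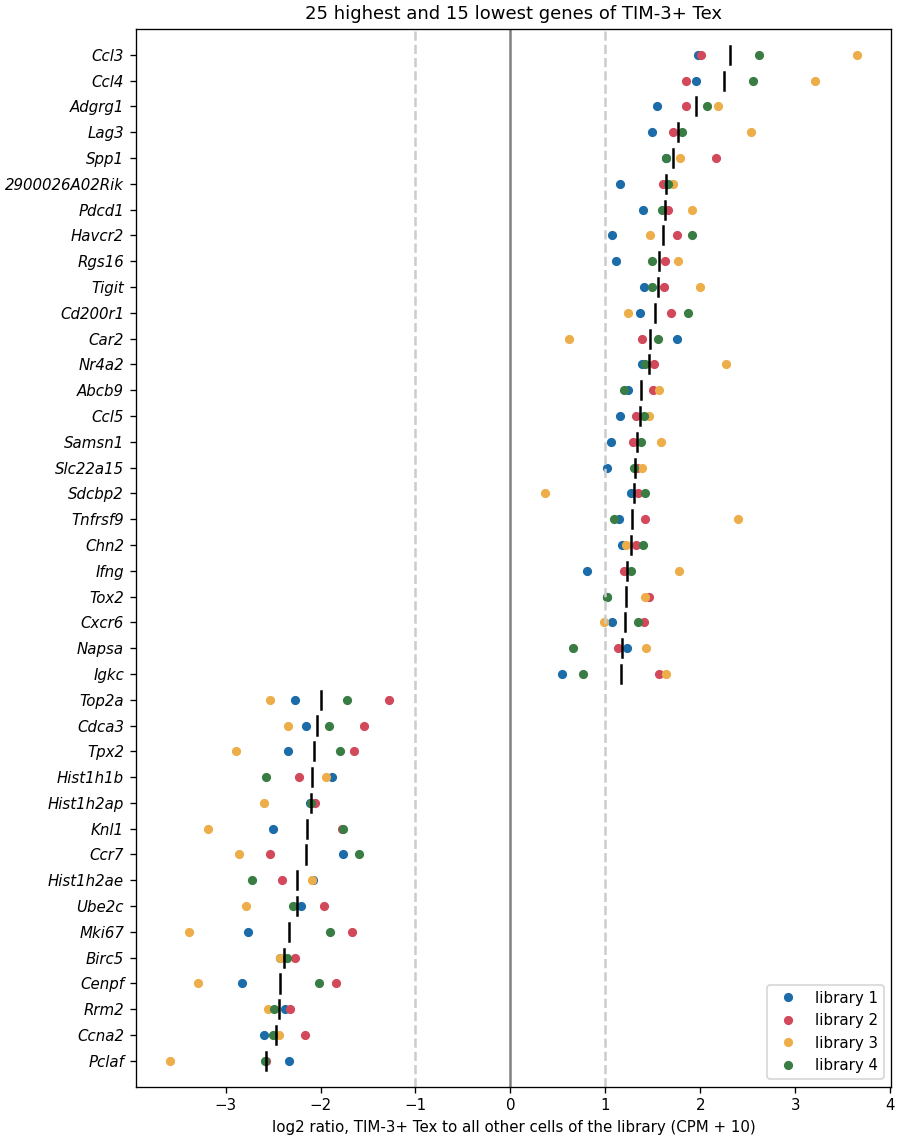
Log2 ratio of TIM-3+ Tex to all other cells of the library for the 25 highest and 15 lowest genes, with 1 point per library, a bar at the median and dashed lines at -1 and 1. Ccl3 and Ccl4 lead, with medians of 2.31 and 2.25, the library 3 point is often the outermost, and the lowest genes other than Ccr7 are cell cycle and histone genes. Of the 15 lowest genes, Mki67, Hist1h2ae, Hist1h1b and Top2a reached 25 CPM in TIM-3+ Tex. The rest entered only through the other cells, so their direction was set by the filter.

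Transitory Teff shared a Leiden cluster, the deposited grouping by number, with TIM-3+ Tex: Leiden cluster 5 held 1037 of the 1056 TIM-3+ Tex cells and also 287 of the 1891 transitory Teff cells. Transitory effectors are an intermediate state of T cells under lasting stimulation. Of 4767 genes compared, 33 were called higher in TIM-3+ Tex (0.692%) and 25 lower (0.524%). Ccl3 had a log2 ratio of 2.38 (transitory Teff at 368, 420.0, 506 and 447 CPM) and Ccl4 one of 1.84 (773, 996, 1281 and 1011 CPM). Spp1 was at 5.46, 62.2, 3.68 and 18.6 CPM in transitory Teff (2.07, range 0.91 to 2.63).

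Among 15 inhibitory receptors, Havcr2 (16.9, 18.4, 29.5 and 13.2 CPM in transitory Teff, log2 ratio 1.70), Cd200r1 (1.57), Cd244a (79.7, 62.3, 56.2 and 58.8 CPM against 23.7, 14.2, 19.2 and 8.30 CPM, 1.5), Lag3 (1.14) and Pdcd1 (1.03) were called higher. Havcr2 and Pdcd1 are markers given with the cluster, so their direction is partly built in. Havcr2, Cd200r1 and Cd244a averaged below 25 CPM in transitory Teff and entered through TIM-3+ Tex, so their direction was set by the filter. Klrg1, a receptor of short-lived effectors, was called lower (8.53, 10.6, 18.7 and 13.1 CPM against 41.5, 30.0, 54.5 and 27.5 CPM, -1.06). It averaged below 25 CPM in TIM-3+ Tex and entered through transitory Teff, so its direction was set by the filter. Tigit had a ratio of 0.91 and Tox one of 0.67 (range 0.17 to 0.95), and neither was called. Nr4a2 (1.32), Tox2 (1.15) and Prdm1 (1.07) were the 3 of 16 exhaustion factors called.

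Of 15 naive and stem-like genes 9 were called lower than in transitory Teff, with a list median of -1.24. In TIM-3+ Tex 11 of the 15 reached 25 CPM. Il7r, Id3, S1pr1 and Lef1 averaged below that level and entered through transitory Teff, so their direction was set by the filter. Klf2, a factor that drives exit from tissue, stood at 132, 213, 71.9 and 179 CPM against 534, 653, 531 and 567 CPM (-1.77, range -2.72 to -1.57). Its target S1pr1, the receptor that guides lymphocytes into blood, stood at 13.4, 27.3, 12.5 and 14.0 CPM against 62.5, 84.9, 67.8 and 56.7 CPM (-1.55, range -1.79 to -1.35). For both genes the highest TIM-3+ Tex value lay below the lowest value of transitory Teff. Id3 (17.5, 9.45, 6.25 and 25.9 CPM against 83.2, 63.2, 44.2 and 121 CPM) had the narrowest range of these genes, -1.91 to -1.74. Il7r (-2.08), Tcf7 (-1.51), Xcl1 (-1.48), Lef1 (-1.28), Slamf6 (-1.24) and Klf3 (-1.12) made up the rest, and Cxcr3 (-1.08) and Itgb7 (-1.07) were also called lower.

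**Figure D3:**
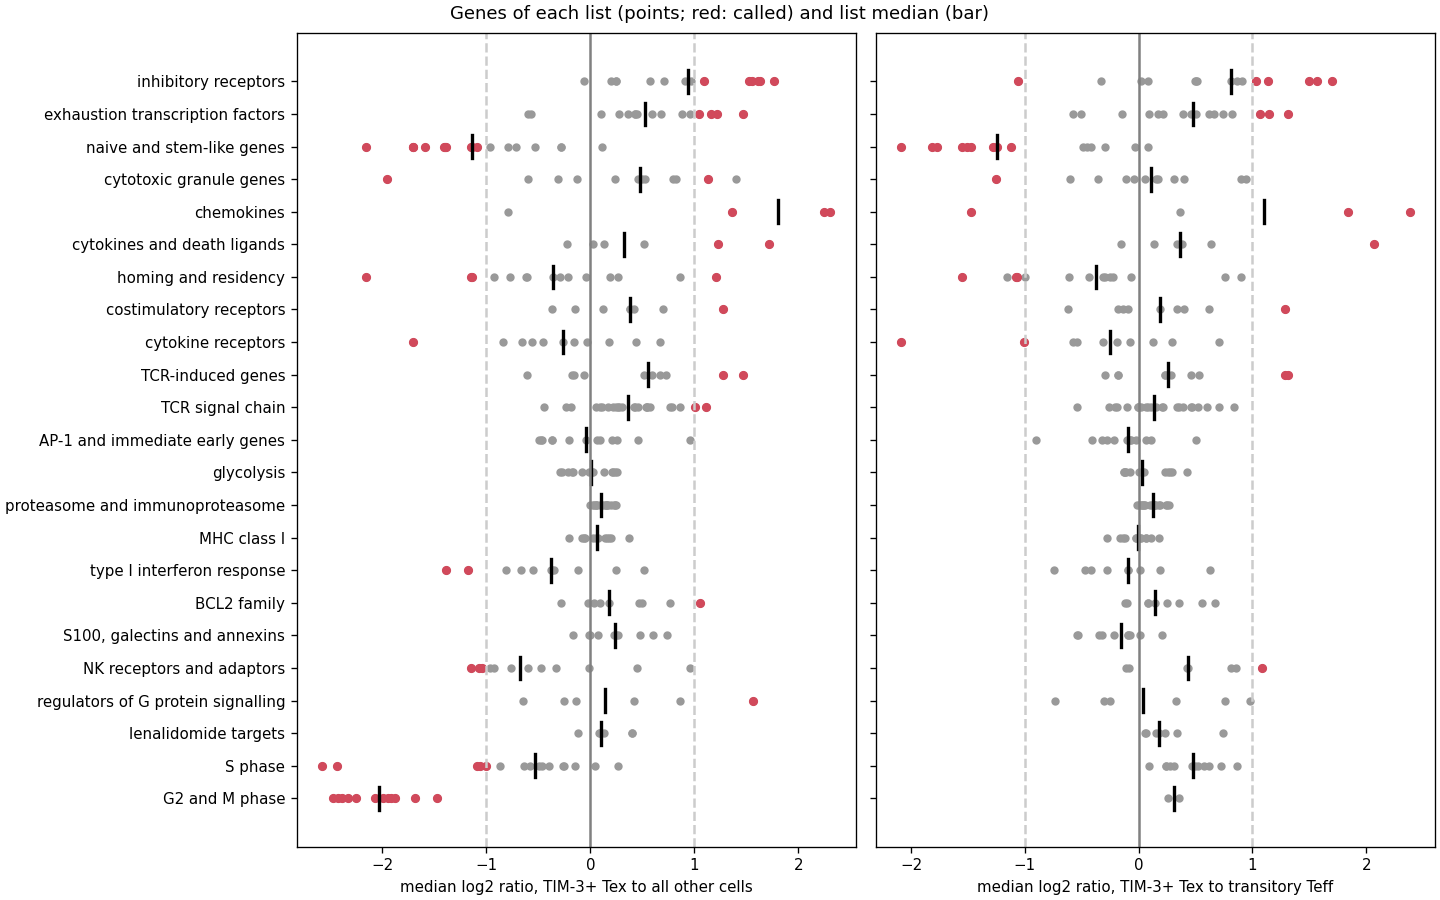
Median log2 ratio of each gene of 23 lists, against all other cells (left) and against transitory Teff (right), with called genes in red, a bar at the list median and dashed lines at -1 and 1. Inhibitory receptors lie to the right and naive and stem-like genes to the left in both panels, while S phase genes have a median of -0.53 on the left and 0.48 on the right. Some naive and stem-like genes entered only through the cells compared with TIM-3+ Tex.

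Few genes were called higher than in TIGIT+ Teff, and many were called lower. Of 5294 genes compared, 3 were called higher in TIM-3+ Tex (0.0567%) and 241 lower (4.55%), and the median of all genes was -0.16. The 3 were Ccl3 (TIGIT+ Teff at 1139, 1500.3, 567 and 519 CPM, log2 ratio 1.42, range 0.37 to 2.82), Ccl4 (1447, 2337, 1023 and 1086 CPM, 1.34, range 0.31 to 2.55) and Ociad2 (1.16, range 0.04 to 1.74). TIGIT+ Teff held 50 cells in library 2 and 59 in library 4, and the genes called higher changed with the library left out: 5, 6, 5 and 4 genes were called without libraries 1, 2, 3 and 4, of which 3, 2, 2 and 2 were among the 3. Ccl3 was not called without library 3 or without library 4, and Gzma was called without library 3 (1.22). In the list of inhibitory receptors 0 of 14 were called (median 0.06), but Lag3 (0.74, range 0.26 to 1.62), Tigit (0.72, range 0.40 to 1.15) and Pdcd1 (0.54, range 0.30 to 0.88) were higher in TIM-3+ Tex in each of the 4 libraries. Havcr2 had a ratio of 0.12 (range -0.17 to 0.55).

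Among 15 naive and stem-like genes 5 were called lower than in TIGIT+ Teff, among them Tcf7 (-1.29; TIGIT+ Teff at 98.8, 107, 119 and 173 CPM), Il7r, Lef1 and Satb1. In TIM-3+ Tex 11 of these 15 genes reached 25 CPM. Il7r and Lef1 averaged below that level, so their direction was set by the filter. Adhesion and homing genes stood out, with 5 of 14 called lower. Itgb1, an integrin subunit, was at 175, 131, 150.0 and 177 CPM against 499, 401, 720 and 544 CPM (-1.56), and Itga4 (-1.20), Itgal and Ccr2 (-1.32) were among the others. Fosb (-1.68), Mki67 (-1.57) and Ptprc, which encodes CD45 (-1.28), were lower too, and 19 of 19 proteasome genes were higher in all 4 libraries without any being called (list median 0.39). The genes called lower were long. Their median span in the genome was 90.6 kb against 23.3 kb for all genes compared, and their median longest transcript had 7443 bases against 3293. Kcnq1ot1, a nuclear noncoding RNA, was among the lowest (42.4, 35, 15.6 and 49.2 CPM against 143, 162, 124 and 118 CPM, -1.74), as were Macf1, Ahnak and Sptbn1. Mitochondrial transcripts took 2.84% to 2.95% of UMIs in the median TIGIT+ Teff cell. The part of gene length and mitochondrial share in the result was not tested. After scaling by the median ratio over genes, 6 genes were called higher and 92 lower.

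Cycling cells were set against TIM-3+ Tex last. Of 5065 genes compared, 21 were called higher in TIM-3+ Tex (0.415%) and 240 lower (4.74%). Those called lower included 17 of the 18 S phase genes compared (median -1.56), of which 12 reached 25 CPM in TIM-3+ Tex. All 18 genes of the G2 and M phase that were compared were called lower (-3.42), but 16 of them entered only through the cycling cells, which are defined by such genes. Ccl4 (1.81), Ccl3 (1.62) and Ccl5 (30681 to 32998 CPM against 9729 to 11545 CPM, 1.58) had the highest ratios. Lag3 (1.23), Cd200r1 (1.21), Havcr2 (1.06) and Tigit (1.02) were the 4 of 14 inhibitory receptors called, 12 of the 14 were higher in all libraries (list median 0.72), and Mxd4, an antagonist of MYC, was higher as well (106 to 140.0 CPM against 34.5 to 62.8 CPM, 1.25).

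Across the 8 clusters, 94 of the 4858 genes (1.93%) were highest in TIM-3+ Tex in each of the 4 libraries, and 143 were when library 3 was left out. TIGIT+ Teff was highest for 1050 genes, cycling cells for 624 and transitory Teff for 26. The 94 included the receptors Pdcd1, Tigit, Lag3, Tnfrsf9 and Cd27, the T cell genes Cd8a, Cd3e, Cd3g and Zap70, and the factors Tox2, Batf, Id2 and Nfil3. Zap70, the kinase that binds the stimulated TCR, was at 360, 300, 331 and 373 CPM, a narrow range.

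Single cells were compared after each was thinned at random to 2500 UMIs, to give all cells 1 depth. At least 3 of the 4 receptor genes Havcr2, Pdcd1, Tigit and Lag3 were detected in 52.3%, 46.4%, 58.1% and 47.2% of TIM-3+ Tex cells of libraries 1 to 4, and in 49.7% of all 1056 (95% interval 46.7 to 52.8). In transitory Teff 16.7% of cells reached 3 (10.1% to 22.6% over the libraries), in TIGIT+ Teff 25.4% (18.6% to 30.1%) and in cycling cells 16.2% (10.9% to 20.7%). The 4 values of TIM-3+ Tex lay above those of these clusters, which did not overlap with them. Havcr2, Pdcd1 and Tigit are markers given with the cluster, so this gap is partly built in and describes the cluster only. GzmA+ Tex, the other cluster of exhausted cells, was not counted. Naive T cells, which should lack these receptors, gave 0.0745%.

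Chemokine transcripts were unevenly spread over the cells. A Ccl3 UMI was found in 80.0%, 80.7%, 80.6% and 73.2% of thinned TIM-3+ Tex cells, against 2.83% of naive cells, and in 91.2% of TIM-3+ Tex cells before thinning. The tenth of cells with most Ccl3 held 47.9% of its UMIs, with up to 91 in a cell and a median of 3. For Ccl4 the tenth held 49.5%, for Gzma 74.2%, for Pdcd1 33.2%, for Tigit 30.1% and for Ccl5 24.3%. Gzma was detected in 44.9%, 29.3%, 16.1% and 26.8% of thinned cells (naive cells 3.65%), so its UMIs came from a minority of cells. Havcr2 was found in 19.2% of thinned and 39.4% of unthinned cells, against 0.298% of thinned naive cells. Other clusters lay closer. In thinned TIGIT+ Teff cells Ccl3 was detected in 49.4%, Gzma in 27.9% and Havcr2 in 16.3%. In thinned transitory Teff cells these shares were 34.5%, 20.6% and 3.81%.

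Levels within TIM-3+ Tex varied little among libraries for most genes. Over 1374 genes of at least 100 CPM, the median range from the lowest to the highest library was 0.28 on the log2 scale. Gzma had the widest range, 3.52, which was 0.67 without library 3. Xcl1 followed with 306, 107, 46.9 and 406 CPM (range 2.87, or 1.83 without library 3), then Spp1 (2.37), Ly6a (238, 266, 731 and 146 CPM, 2.25), S100a4 (169, 267, 819 and 167 CPM, 2.23), Klf2 (1.45), Tcrg-C2 (1.38), Ptpn6 (1.30), Rps27rt (1.24) and Tnfrsf9 (1.24). Ly6a and S100a4 were highest in library 3 in transitory Teff as well, at 834 and 787 CPM. For Gzma, library 3 was not the lowest in transitory Teff, with 982, 434, 710 and 355 CPM in libraries 1 to 4.

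The TCR was called in 269, 93, 22 and 191 TIM-3+ Tex cells (55.3%, 51.4%, 71.0% and 53.4%). Cells with a call were shallower: their median was 5818, 6268, 7529 and 5119 UMIs, against 13042, 12112, 13370 and 12963 in cells without one. Of 4803 genes compared within the cluster, 2 were called higher in cells with a call (0.0416%) and 14 lower (0.291%). Spp1 (1.05) and Gm156 (1.57) were the 2, and Gm156 is named because the count is small, after its values were seen. Tcf7 stood at 17.2, 6.24, 0 and 25.3 CPM in cells with a call and at 59.8, 53.6, 22 and 87.8 CPM in those without (-1.57), and Ccr2 (-1.88), Ly6c2 (-1.52), Satb1 (-1.34), Tyrobp (-1.32) and Fcer1g (-1.26) were also lower. Havcr2 was at 94.0, 133, 120 and 119 CPM with a call and at 61.5, 60.5, 73.4 and 50.2 CPM without (0.83, range 0.54 to 1.10). The difference in depth moves with the call, and its part in these ratios was not tested. Among cells without a call, 4 genes were called higher in TIM-3+ Tex than in all other cells (Ccl3, Ccl4, Adgrg1 and Lag3), and among cells with a call 108 were, the 43 included.

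TIM-3+ Tex had the highest Simpson index of the 8 clusters by the median over libraries. This index, the square root of the chance that a pair of cells share a clonotype, was 0.334, 0.295, 0.246 and 0.318 in libraries 1 to 4, with a median of 0.307, and the next cluster was transitory Teff at 0.189. In library 3, with 22 cells, cycling cells had the higher value. Clonotypes numbered 40, 31, 14 and 48, of which 24, 19, 10 and 28 were seen in 1 cell, and the largest took 27.5%, 21.5%, 18.2% and 25.7% of the cells. These clonotypes were not confined to the cluster. Of 852, 353, 119 and 716 cells that carried them, 583, 260, 97 and 525 lay in other clusters, with 25%, 45.3%, 26.1% and 39.5% in transitory Teff and 26.6%, 16.1%, 30.3% and 22.6% in cycling cells. Of the 121 clonotypes, 19 were found in more than 1 library (15.7%). In the whole data 37 of 5195 were (0.712%), the 19 included. A clonotype of 1 cell cannot be in more libraries, and such clonotypes prevail in naive and central memory cells (774 of 803 in Tcm of library 1). The 2 shares are therefore not matched for clone size, and other expanded clusters were not counted. No animal can be assigned to these, since mice were pooled.

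**Figure D4:**
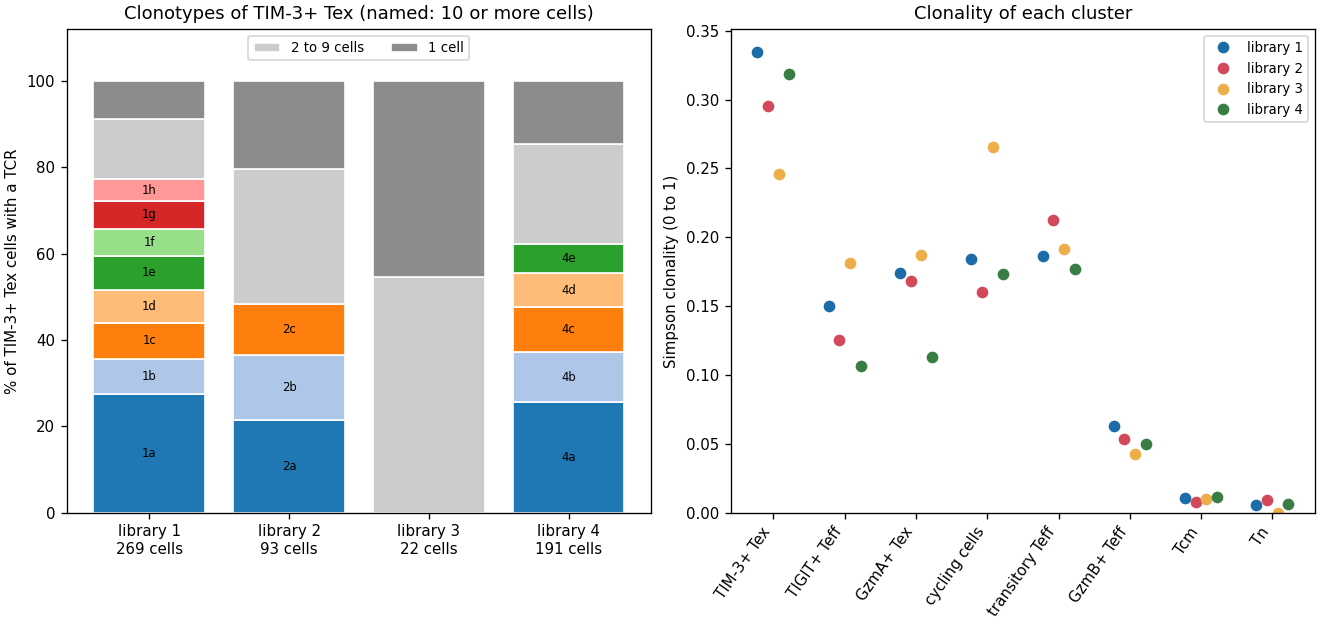
Left, share of TIM-3+ Tex cells with a TCR taken by each clonotype of 10 or more cells (named), by clonotypes of 2 to 9 cells and by those of 1 cell, per library. Right, Simpson index of each cluster with 1 point per library; TIM-3+ Tex lies between 0.246 and 0.334.

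There were 16 clonotypes with at least 10 TIM-3+ Tex cells in a library, 372 cells in all, and they are named by library and rank. Their CDR3 sequences, the part of the TCR that reads peptide, are shown for the largest clonotype of each library that had one and for clone 2b, since the results on granzyme A and TIM-3 turn on them. Sequences run 5′ to 3′ as deposited, and capitals mark the bases other than the first 9 and the last 9, which come mostly from the V and J genes.
clone 1a TRA (TRAV16N, TRAJ49): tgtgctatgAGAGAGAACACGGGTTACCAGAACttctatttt
clone 1a TRB (TRBV1, TRBJ2-1): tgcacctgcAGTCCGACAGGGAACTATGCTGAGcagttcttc
clone 2a TRA (TRAV9-1, TRAJ45): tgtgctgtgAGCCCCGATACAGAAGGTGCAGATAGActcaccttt
clone 2a TRB (TRBV17, TRBJ2-7): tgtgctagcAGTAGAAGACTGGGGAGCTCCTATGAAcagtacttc
clone 2b TRA (TRAV8-1, TRAJ33): tgtgctaatAGCAACTATCAGttgatctgg
clone 2b TRB (TRBV19, TRBJ2-3): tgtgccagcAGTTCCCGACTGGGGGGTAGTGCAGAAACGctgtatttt
clone 4a TRA (TRAV13N-1, TRAJ9): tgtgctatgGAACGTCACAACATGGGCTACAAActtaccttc
clone 4a TRA (TRAV12D-3, TRAJ11): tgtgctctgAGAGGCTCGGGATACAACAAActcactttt
clone 4a TRB (TRBV5, TRBD1, TRBJ2-7): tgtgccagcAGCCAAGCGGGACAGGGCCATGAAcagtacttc
Clone 1a had 74 TIM-3+ Tex cells of 170 in its library, clone 2a had 20 of 110, clone 2b had 14 of 26 and clone 4a had 49 of 75. Clone 1h of library 1 (14 of 24 cells) carried the 3 chains of clone 4a, and clone 4c (20 of 33 cells) carried its TRB chain with the TRAV13N-1 chain, so clones 1h, 4a and 4c were alike in sequence and 2 of them lay in 1 library. No barcode sequence was shared between the libraries for these clonotypes.

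Some chains were found in pairs in 1 cell. In library 1, 43 TIM-3+ Tex cells held both the TRBV1 chain of clone 1a and that of clone 1b, while 78 held the first and 23 the second without the other. The second chain was this:
clone 1b TRB (TRBV1, TRBJ1-4): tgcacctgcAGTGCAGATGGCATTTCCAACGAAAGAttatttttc
Cells with both had a median of 6779 UMIs against 5818 in those with 1 of them, and 153 cells of all clusters in the library held both. Clones 1a, 1b, 1c and 1d were therefore combinations of a few chains, and counted by TRB chain alone the Simpson index of the cluster was 0.400.

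Clonotypes differed in Gzma and Havcr2. Gzma was detected in 9 of 14 TIM-3+ Tex cells of clone 2b, 6 of 49 of clone 4a and 1 of 14 of clone 1h. The Poisson intervals count UMIs and do not cover this spread among cells. Gzma ranged from 63.7 CPM in clone 1h (Poisson interval 17.3 to 163) to 6861 CPM in clone 2b (6260 to 7504), and Havcr2 from 17.4 CPM in clone 4e (2.11 to 63.0) to 350.1 CPM in clone 1h (219 to 530.1). The clonotypes with the TRB chain of clone 4a had the lowest Gzma and the highest Havcr2: clone 4a had 105 CPM of Gzma and 295 CPM of Havcr2 and clone 4c 149 and 349 CPM. This chain was singled out after these values were seen, so the split by chain describes the same cells and supports nothing further. Cells with this TRB chain were 19 in library 1 (7.06% of TIM-3+ Tex cells with a TCR) and 73 in library 4 (38.2%). In library 1 they had 56.5 CPM of Gzma and 305 CPM of Havcr2, against 1564 and 83.0 CPM in the other TIM-3+ Tex cells with a TCR. In library 4 the values were 107 and 290 CPM against 1534 and 54.2 CPM. Tigit was higher in these cells as well, at 1062 against 709 CPM in library 1 and 1130 against 680 CPM in library 4, whereas Tox was lower, at 452 against 581 CPM and 461 against 586 CPM. Ccl3 differed in direction between libraries, at 1322 against 2931 CPM in library 1 and 3663 against 2762 CPM in library 4.

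Among the 16 clonotypes other levels also varied. Ccl3 ranged from 939 to 6457 CPM, Ccl4 from 2053 to 11018 CPM, Ifng from 71.6 to 619 CPM and Spp1 from 0 to 480.0 CPM. Pdcd1 ranged from 567 to 988 CPM, Tigit from 436 to 1258 CPM, Lag3 from 541 to 1243 CPM and Tox from 454 to 888 CPM, while Tcf7 was at 28.9 CPM or less in each. The same clonotype could differ between clusters. Several of the 16 share a TRB chain, so they are not 16 separate clones. Gzma is also a marker given with the cluster, so its direction is partly built in. Gzma was higher in TIM-3+ Tex than in transitory Teff cells of the same clonotype in 14 of 16 clonotypes and lower in 2, which were clone 1f (755 CPM in 17 cells against 2483 CPM in 3) and clone 4c (149 CPM in 20 cells against 1138 CPM in 9). In clone 1e Gzma stood at 4400 CPM in 21 TIM-3+ Tex cells and 75.8 CPM in 8 transitory Teff cells, in clone 4b at 2620 CPM in 22 cells and 80.4 CPM in 67, and in clone 4e at 3742 CPM in 13 cells and 38.3 CPM in 14. Gzma was detected in 13 of the 21 TIM-3+ Tex cells of clone 1e, 9 of the 22 of clone 4b and 8 of the 13 of clone 4e. In clone 2b it was high in both clusters, at 6861 CPM in 14 TIM-3+ Tex cells and 6251 CPM in 4 transitory Teff cells. The TRB chain of clone 2a was found in 5 TIM-3+ Tex cells of library 3 (22.7% of those with a TCR), with 0 Gzma UMIs of 35122. The limit of 3 UMIs for a count of 0 does not cover the spread among cells. Gzma was detected in 32.3% of unthinned TIM-3+ Tex cells of library 3, so 5 cells without it say little. Cells of 1 clonotype share a library and an origin, so these values describe the clonotypes and are not replicates of a condition.

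**Figure D5:**
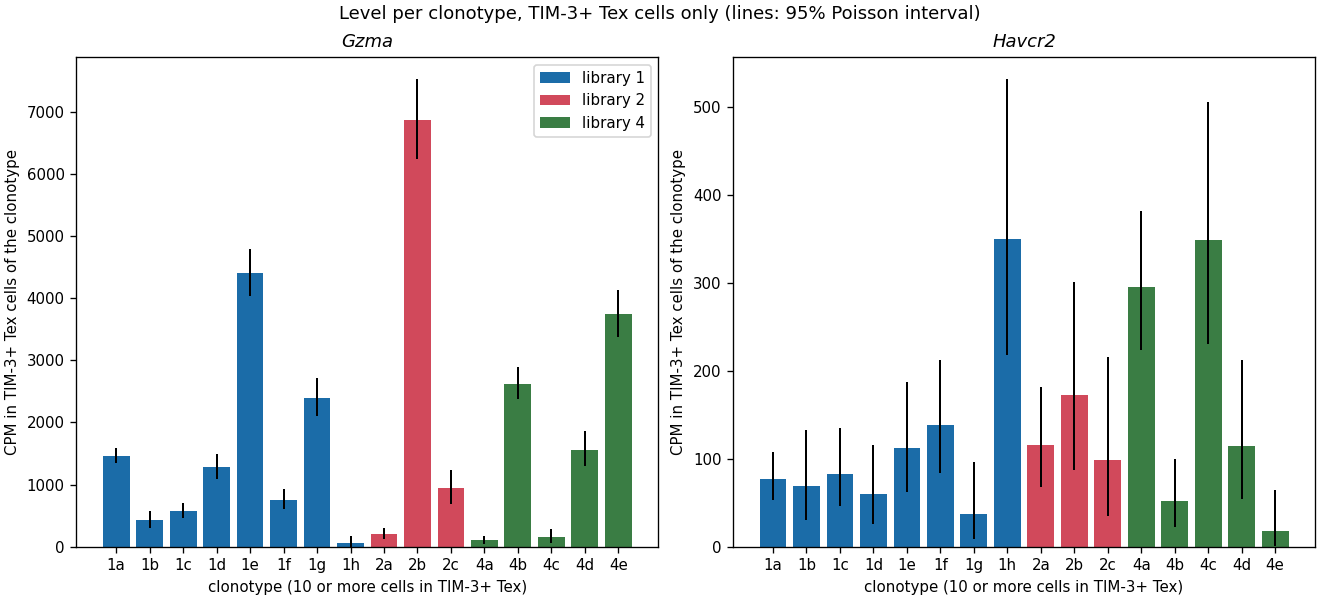
Gzma (left) and Havcr2 (right) in TIM-3+ Tex cells of the 16 clonotypes of 10 or more cells, in CPM on linear axes from 0, colored by library, with lines for the 95% Poisson interval. Clones 1h, 4a and 4c, which share a TRB chain, are lowest in Gzma (63.7 to 149 CPM) and highest in Havcr2 (295 to 350.1 CPM), and clone 2b is highest in Gzma.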

How the data were processed

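Gene expression and TCR libraries of BM CD8+ T cells were made with the 10x 5′ method. Reads were run by the authors through Cell Ranger 7.00 (genome build mm10, both per the submitters' processing notes). They equalized read depth across libraries, and kept cells by UMIs, mitochondrial share and T cell genes. They deposited raw UMI counts per gene and cell (17561 genes, 11754 cells, 2502 to 24983 UMIs per cell), with no normalization. The deposited mitochondrial share is a fraction, and cluster names, Leiden numbers and library numbers come from the authors' cell table. The embedding coordinates, a score the authors deposited from Monocle3, were not used for any result. The TCR table lists the chains of each cell.

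Counts were summed per library and cluster and expressed as CPM. Log2 ratios used a pseudocount of 10 CPM, and genes were compared if the mean of the 2 sides together was at least 25 CPM over the libraries. No doublet caller was run, and cells with several TRB chains were kept. Each cell was thinned to 2500 UMIs with seed 7 for shares of cells. A count of 0 allows up to 3 UMIs. Intervals are at the 95% level (Clopper-Pearson for shares, Poisson for CPM) and cover counting error only. Replicate libraries of a group were not analysed here, so no test was run. Symbols came from GENCODE M21 for 17534 of the 17561 genes, and promoters from RefSeq (GRCm38.p6). Named genes are the 6 markers, genes of the 30 lists, the 25 highest and 15 lowest against all other cells, the 10 highest and lowest against each other cluster, and the 10 widest ranges over libraries. The cluster, its markers and the lists were chosen with earlier results of these data known. Ratios were checked on simulated counts. The tools were matplotlib 3.10.9, pandas 2.3.3, scipy 1.17.1 and numpy 2.4.6 under Python 3.11.15. Alternatives changed the pseudocount, filter, scaling, depth, weighting, cluster label, clonotype weighting, cells and libraries, and those with and without a TCR call were added after seeing the data. Some members of the lists are not reported here.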

Additional observations from a re-analysis of the deposited data

How the results depend on the processing

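Counts are given in the order higher, then lower, with 43 and 79 against all other cells, 33 and 25 against transitory Teff, 3 and 241 against TIGIT+ Teff, and 21 and 240 against cycling cells as reported. A pseudocount of 1 CPM gave 40 lower against transitory Teff, 5 and 455 against TIGIT+ Teff and 40 higher against cycling cells. A pseudocount of 50 CPM gave 14 and 20 against all other cells, 8 and 5 against transitory Teff, 21 lower against TIGIT+ Teff, and 4 and 132 against cycling cells. With no filter on low values 141 were lower against all other cells. With a filter of 100 CPM there were 18 and 14 against all other cells, 12 and 5 against transitory Teff, 67 lower against TIGIT+ Teff, and 11 and 79 against cycling cells. Scaling by the median ratio gave 6 and 92 against TIGIT+ Teff. Thinning to 2500 UMIs gave 39 lower against transitory Teff, 20 and 747 against TIGIT+ Teff and 37 higher against cycling cells. The mean of CPM per cell gave 39 lower against transitory Teff, 14 and 729 against TIGIT+ Teff and 37 higher against cycling cells, and counts summed over libraries gave 7 and 365 against TIGIT+ Teff. With 1 cell per clonotype there were 130 higher against all other cells, 58 and 53 against transitory Teff, 63 and 870 against TIGIT+ Teff and 79 higher against cycling cells. Without cells holding other cell types' UMIs there were 76 higher against all other cells, 29 and 692 against TIGIT+ Teff, and 66 and 375 against cycling cells. Among cells with a TCR call, an alternative chosen after seeing the data, there were 108 higher against all other cells, 50 and 53 against transitory Teff, 49 and 911 against TIGIT+ Teff and 74 higher against cycling cells, and among cells without one 4 higher, 19 and 13, 0 and 75, and 3 higher. The cause of these shifts was not tested.

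Leaving out 1 library at a time gave 40 to 47 and 69 to 85 against all other cells, 32 to 39 and 18 to 35 against transitory Teff, 4 to 6 and 175 to 355 against TIGIT+ Teff, and 19 to 27 and 232 to 254 against cycling cells. It gave shares of 7.58% to 10.2% of cells, a median Simpson index of 0.295 to 0.318 and a largest clone of 21.5% to 25.7%. The share was 7.22% of cells with a TCR, 2.33% with each clonotype counted once and 11.4% with Leiden cluster 5. By TRB alone the Simpson index was 0.400 and the largest clone 32.9%, and with exactly 1 TRA and 1 TRB chain they were 0.413 and 33.1%. Of 7815 recomputed gene ratios 6699 moved by less than the SD over libraries, 1116 by more, and 0 called ratios changed sign. Leaving out 1 library cannot move a median of 4 by as much as that SD, nor turn the sign of a called ratio. The 521 ratios of each such setting were therefore fixed in advance and do not show stability. No paired analysis was possible because each treatment group was 1 library and no number pairs libraries. The ratios themselves were taken within libraries. Depth limits library 3, where 31 cells make 1 UMI worth 3.12 CPM.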

Other observations

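Clone 2a of library 2 shared its TRB chain with cells of library 3, and the levels there are given for comparison. In library 2, 37 TIM-3+ Tex cells (39.8% of those with a TCR) carried the chain, with 348 CPM of Gzma, 131 CPM of Havcr2 and 725 CPM of Pdcd1. In library 3, 5 cells carried it, with 28.5 CPM of Havcr2, which was 1 UMI, and 655 CPM of Pdcd1. The TRB chain of clone 1a was in 121 TIM-3+ Tex cells of library 1 (45.0%) with 1207 CPM of Gzma and in 6 of library 2 (6.45%) with 9504 CPM. The latter was 337 UMIs in 6 cells, and their spread among the cells was not counted.

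Against transitory Teff, the homing and residency list had a median log2 ratio of -0.38 over 14 genes, with 3 called lower (S1pr1, Itgb7 and Cxcr3) and 0 called higher. Cytokine receptors gave 2 of 10 called lower, Il7r and Il18r1, and 8 of the 10 reached 25 CPM in TIM-3+ Tex. S1pr1 and Il7r averaged below that level and entered through transitory Teff, so their direction was set by the filter. Among NK receptors, Klra7 was called higher than in transitory Teff (1.08) and lower than in all other cells (-1.15).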
